A study of Cyprinus carpio with 6 samples.

Results

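The loci described here are the 138 loci of the common carp embryo transcriptome that carried an estimated count of 10 or more in exactly 3 of 6 RNA-Seq libraries and under 0.5, or no entry, in the other 3. They were drawn from 32476 listed loci whose identifiers start with XLOC_ or LOC, out of 40568 listed loci in all. An XLOC_ locus was assembled from the reads by the authors, and a LOC locus is an annotated gene that has no symbol. The members comprised 89 XLOC and 49 LOC loci. One identifier, LOC109069348, was to be dropped by the rule, but it did not meet the limits. The members were chosen by their estimated counts in all 6 libraries, so their presence and absence is a description, and no test of it is given.

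The libraries were made from whole embryos of Cyprinus carpio at the mid-blastula stage. In 3 libraries the embryos came from sperm kept on ice for 14 days (14-day-aged sperm), and in the other 3 from fresh sperm used on day 0. Both kinds of sperm came from the same males, and the oocytes from a single female, but no source used here says which male stands behind which library or how many embryos each library holds. P-values therefore measure only the spread between these libraries. Totals were 14993459 to 15632387 counts in libraries of the aged group and 15102045 to 15185710 in those of the fresh group. Transcripts of early embryos and oocytes (nanog, pou5f3, sox19b, ccnb1, ccna1 and npm2a, the 6 of 14 such markers listed) summed to 5600 to 6110 CPM (counts scaled to a common library total) in the aged group and 5680 to 6160 CPM in the fresh group. The 4 listed of 12 markers of differentiated cells summed to 0.267 to 0.384 CPM in the aged group and 0.0662 to 0.264 CPM in the fresh group. The single listed sperm marker of 4, spag6, stood at 0.0654 to 0.192 CPM in the aged group and 0 to 0.264 CPM in the fresh group.

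Common carp is an allotetraploid: its genome joins the chromosome sets of separate ancestral species, named A and B, so that most genes are present as a pair of similar copies, each with its own alleles. At the mid-blastula stage much of the RNA was laid down in the egg, and transcription of the embryo's own genome is starting. Where a read matches several similar sequences, RSEM, the program named in the labels of the deposited values, divides it between them by an estimate, so that the copies of one gene, or assembled variants of one copy, can exchange counts.

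The members were spread over nearly all of the 20 possible sets of 3 libraries. Loci held by the 3 libraries of the aged group numbered 12, and those held by the 3 libraries of the fresh group numbered 9. The most filled of the 18 mixed sets, aged 1 with fresh 1 and fresh 2, also held 12 loci. Mixed sets held 0 to 12 loci each, and only the set of aged 1, aged 3 and fresh 3 held none. Joined with its complement, each set is 1 of 10 ways to divide the libraries 3 against 3. The division by sperm storage held 21 of the 138 members (15.2%), as did the division of aged 1, fresh 1 and fresh 2 from the rest. The other 8 divisions held 8 to 18. The remaining 117 members thus divided the libraries across the storage groups.

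**Figure D1:**
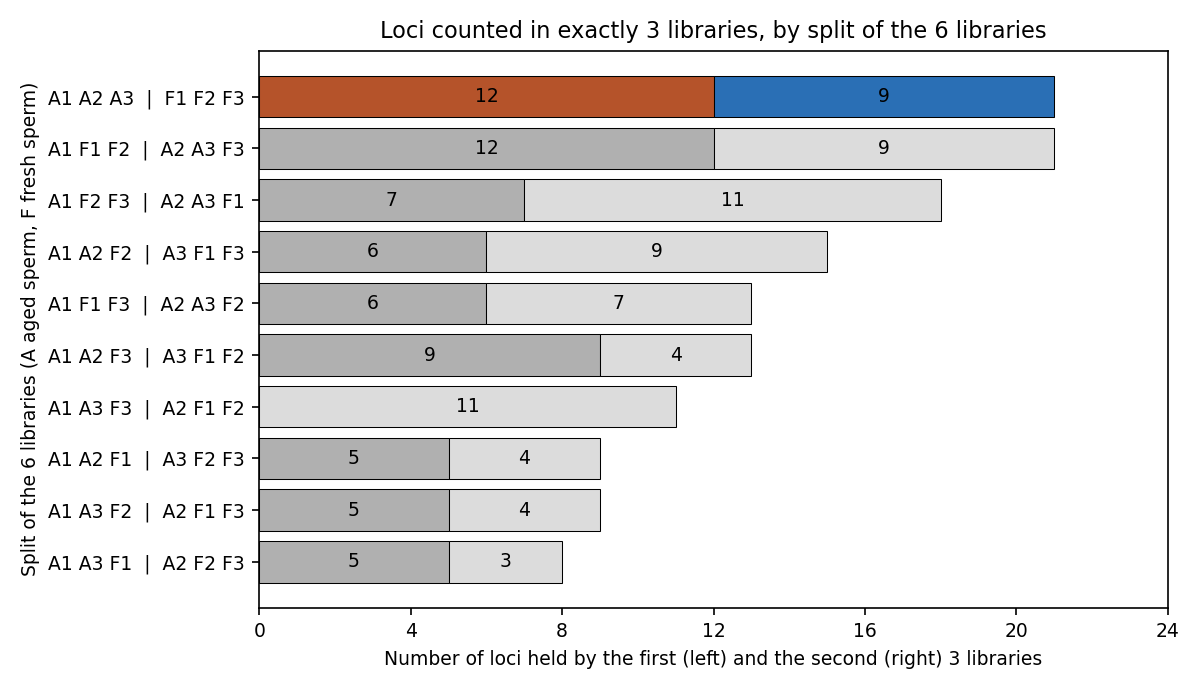
Number of loci (horizontal axis) for each of the 10 ways to divide the 6 libraries 3 against 3 (vertical axis; A, 14-day-aged sperm; F, fresh sperm). The left segment counts loci held by the first 3 libraries and the right segment those held by the other 3; storage, in colour, holds 12 and 9 loci, and a mixed division holds 12 and 9 as well.

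No library stood out as a holder. Libraries aged 1, aged 2 and aged 3 held 67, 77 and 66 members, and fresh 1, fresh 2 and fresh 3 held 76, 68 and 60. The members took 0.0197 to 0.0279% of the counts of a library in the aged group and 0.023 to 0.0361% in the fresh group. Sets that include an aged and a fresh library of the same replicate number averaged 6.42 loci over 12 sets, against 7.62 over the 8 sets without one. The latter include the sets of the storage division, with 12 and 9 loci, which raise their average. Among 119 loci counted in exactly 2 libraries, same-numbered library pairs held 9.33 on average, pairs within a storage group 7.5, and other pairs 7.67. The ranges overlapped, at 6 to 11 loci in the 3 same-numbered pairs, 4 to 9 within a storage group and 4 to 11 in other pairs.

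The limits were crossed by few loci on the side of absence. By the same limits 165 loci were counted in 1 library, 119 in 2, 160 in 4, 274 in 5 and 19664 in all 6. Of the members, 132 were at exactly 0 or unlisted in their other 3 libraries, and 6 had a trace there, at most 0.22 counts in XLOC_025696. The members nearest the lower limit were XLOC_042991, XLOC_015340, XLOC_001388 and XLOC_036052, whose lowest counts in a holding library were 10.1, 10.4, 10.5 and 10.5. Just outside lay LOC122137429 and XLOC_045598, each with 9.93 counts in the least of 3 libraries. On the side of absence the nearest locus left out was LOC109059885, with 0.95 counts in a further library.

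The members differed from loci in all 6 libraries in class, level, length and transcripts. Of these, the level derives from the counts that the rule used. Of the members, 64.5% were assembled loci, compared with 30.3% of the loci counted in all 6 libraries. The share was 66.1, 61.3, 53.8 and 59.1% in loci counted in 1, 2, 4 and 5 libraries, so it was not particular to the members. Their median mean count in the holding libraries was 30.2, with a range of 10.5 to 460, and their median level per length was 0.635 FPKM, a level scaled to transcript length and library size. Loci in all 6 libraries had a median of 5.89 FPKM. The median effective length, the transcript length less the mean fragment length, was 3402 bases in members and 2380 bases in loci of all 6 libraries. A single transcript was listed for 78.3% of members, and by class for 74.2% of XLOC and 85.7% of LOC members, against 60.1% of XLOC and 55.5% of LOC loci in all 6 libraries. These shares are descriptions, since the counts of the same libraries chose the members. Level, length and transcripts were not compared with loci counted in 1, 2, 4 or 5 libraries. Whether they are particular to the members was not tested.

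Counts that are not whole were far more usual among members; how their reads were assigned was not tested. Only 4 of 138 members (2.9%), all of them XLOC loci, had whole counts in every library that held them. The comparison used 10803 loci counted in all 6 libraries, in the members' range of mean count without its top end. Of these, 45% had whole counts in the 3 libraries of the aged group and 45.2% in those of the fresh group. In the other 134 members at least 1 count was not whole. Members also varied more: the highest CPM among holding libraries was a median of 2.03 times the lowest, compared with 1.33 times among the 3 libraries of either group in those 10803 loci. Within the range of mean count, these loci were not matched to the members in count, so a difference in count may enter both comparisons. Neither comparison was made with loci counted in 1, 2, 4 or 5 libraries.

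All 49 LOC members were matched in the gene table of assembly ASM1834038v1, the one the authors mapped to. The A chromosomes carried 20 of them (40.8%), the B chromosomes 26 (53.1%), and 3 lay on sequences with no chromosome. Of LOC loci in all 6 libraries, 53.3% lay on A and 44% on B. The members were scattered, and only a single pair of neighbours lay close together. LOC109078311, on A13 from 25954613 to 25963766, and LOC109073157, on the same chromosome from 26051142, are 87376 bases apart but were held by different libraries. The next nearest pair was 2507672 bases apart. Positions of XLOC loci were not used here.

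In a minority of members of high count, the counts of the holding libraries took the same value or about 2 times it. The 3 members of highest mean count in mixed sets were LOC109084859, XLOC_006520 and XLOC_018687. LOC109084859 (A2, 14460781 to 14485866) had 280 counts in aged 1, 924 in fresh 1 and 175 in fresh 2, and was thus uneven. XLOC_006520 had 343 counts in aged 1, 351 in aged 2 and 346 in fresh 2, which is nearly level. XLOC_018687 had 390 counts in aged 2, 195 in aged 3 and 392 in fresh 1, so that a pair of libraries stood at about 2 times the other.

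The same steps recurred in other members, named here because of their values. XLOC_005990 had 228.48 counts in aged 3, 228.24 in fresh 2 and 457.13 in fresh 3. XLOC_021129 had 206.59 counts in aged 2, 413.7 in fresh 1 and 206.33 in fresh 2. XLOC_039272 had 138.6 counts in aged 1, 139 in fresh 1 and 68.9 in fresh 3. In each of the 3 loci the highest count was 2.003 to 2.018 times the lowest, and storage did not order the steps. XLOC_039262 had 96.8 counts in aged 1, 96.9 in fresh 2 and 97 in fresh 3. Its SD over the 3 libraries was 0.0854 counts, whereas the square root of its lowest count, the SD that independent counting would give, is 9.84. With XLOC_018687 these were the 5 of 23 members with a lowest count of 40 or more (21.7%) whose counts all lay within 2% of 1 or 2 times the lowest, and in 4 of them a count was at 2 times. Of loci counted in all 6 libraries, 56 of 9631 did so among the 3 libraries of the aged group (0.581%) and 75 of 9606 among those of the fresh group (0.781%), with a count at 2 times in 2 and 3 of them. These loci had a lowest count of 40 or more in those 3 libraries and a mean count up to the highest of any member. The limits of this rule, and of the pairs below, were not among the planned comparisons, so these shares are a description.

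Taken by pairs of libraries, 87 pairs of counts in 41 members were both 40 or more. The higher count lay within 1% of the lower in 13 pairs (14.9%) and within 1% of 2 times the lower in 8 pairs (9.2%). All 8 came from XLOC_005990, XLOC_018687, XLOC_021129 and XLOC_039272, the loci already named for such steps, so they add no further loci. In loci of all 6 libraries the shares were 6.05% and 0.127% of 240375 pairs. For these pairs the loci of all 6 libraries had no upper limit on their count, so they were not matched to the members in count. Loci held by 4 or by 5 libraries also showed such steps, with 7.32% of 369 pairs and 3.47% of 1095 pairs at 2 times. In loci held by 2 libraries, 9 of 28 pairs were level (32.1%) and 0 lay at 2 times. Pairs of 1 locus share their counts, so these shares have no error attached. After scaling to CPM, which shifts counts by up to the difference in library totals, 7 of the 87 pairs were level (8.05%) and 3 lay at 2 times (3.45%), against 6.22% and 0.103% in loci of all 6 libraries. The levels were thus closer in the deposited counts than after correction for depth. What sets these steps was not tested.

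**Figure D2:**
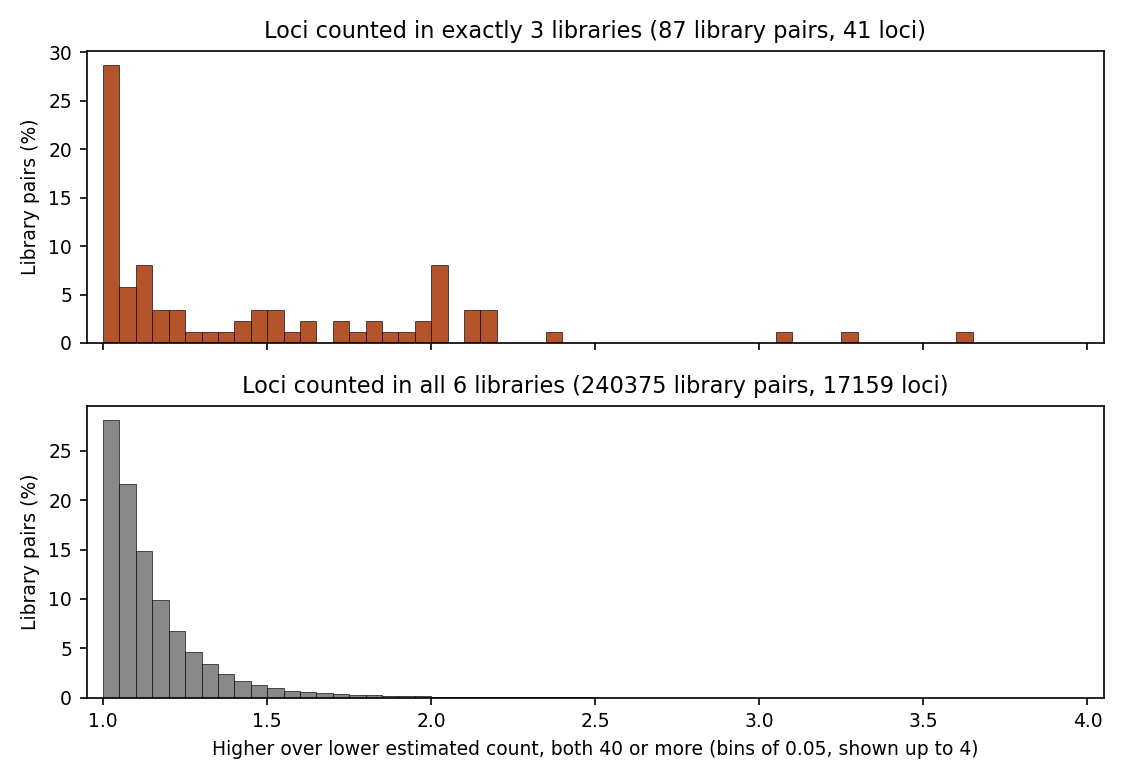
Share of library pairs (vertical axis, %) by the ratio of the higher to the lower estimated count (horizontal axis, bins of 0.05, pairs with both counts 40 or more, ratios up to 4 shown) for loci counted in exactly 3 libraries (top) and in all 6 (bottom). Both panels are highest at a ratio of 1, and the top panel has a further peak at 2. In the top panel 9.2% of pairs lie within 1% of a ratio of 2, against 0.127% in the bottom panel. All of these top-panel pairs come from XLOC_005990, XLOC_018687, XLOC_021129 and XLOC_039272. Wide ratios in general are rarer in the bottom panel, whose loci had no upper limit on their count.

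The 21 members that follow storage differed widely in how even they were. Of the 12 held by the aged group, LOC109078311 had the highest mean, with 116, 420 and 79.5 counts in aged 1, 2 and 3 and 0 in all 3 libraries of the fresh group. XLOC_042168 had 229, 47.3 and 27.9 counts in the aged group and 0 in the fresh group. Its terms include mitotic cell cycle checkpoint, regulation of cytokinesis and mitophagy, the removal of mitochondria. In both loci a single library held most of the counts, and the highest CPM was 5.19 and 7.86 times the lowest.

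The other 10 loci held by the aged group had means of 15.6 to 31.9 counts. XLOC_041755, annotated as a ubiquitin ligase, which marks proteins for degradation, had 20.3, 22.3 and 20.5 counts in the aged group and 0 in the fresh group. XLOC_031554, placed by its terms among the blue-light-sensing cryptochromes, had 38.5, 28 and 24 counts in the aged group and 0 in the fresh group. XLOC_033739, the least counted, had 11, 23.1 and 12.8 counts in the aged group and 0 in the fresh group; its terms are those of a kinase that lowers translation when proteins misfold in the endoplasmic reticulum. These loci were low, and their presence in every library of the aged group was set by the rule. LOC109051526 and XLOC_024120 carried terms of the regulation of ARF proteins, which steer vesicle traffic at the Golgi. XLOC_000392 carried terms of DNA repair and XLOC_002648 of tight junctions. LOC109049831 lies on B24 from 14209864 to 14218905 and LOC109051526 on A24 from 14243622 to 14293439. XLOC_010493 and XLOC_033803 completed the group.

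Of the 9 members held by the fresh group, 2 were both highly counted and even. XLOC_044522 had 0 counts in all 3 libraries of the aged group and 325, 335 and 365 in the fresh group (mean 342 ± 20.8, SD, n = 3). XLOC_015994 had 0 counts in the aged group and 245, 244 and 237 in the fresh group (mean 242 ± 4.27, SD, n = 3), a spread under the square root of its lowest count, 15.4. XLOC_044522 carried the terms of an acyltransferase that builds triglycerides, and XLOC_015994 only the term nucleus. Their mean CPM in the fresh group was 115 and 81.6 times a nominal floor of 3 counts per library. The floor is a chosen setting, and divided reads are not independent counts. These ratios are thus no lower bound on a change in embryos from 14-day-aged sperm.

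LOC109056706 (A8, 2106512 to 2157974), annotated as a phosphatidylinositol 4-kinase, had 0 counts in the aged group and 85.9, 40.8 and 46.7 in the fresh group. XLOC_030151 had 0 counts in the aged group and 31.5, 94.2 and 31.4 in the fresh group, with fresh 1 and fresh 3 level and fresh 2 at 3.01 times the lowest in CPM. LOC109081452 (B21, 8736936 to 8749855), with the term synaptic membrane, had 0, 0.05 and 0 counts in the aged group and 52.6, 20.5 and 32.4 in the fresh group. Apart from that trace the aged group was empty at all 9 loci, where the rule allowed only counts under 0.5. XLOC_034259 (regulation of fibroblast growth factor signalling), XLOC_043626 (cryptochrome terms), XLOC_013032 (ribosome biogenesis, spindle) and XLOC_010525 (mitophagy) had means of 23.6, 22.6, 21 and 15.4 counts in the fresh group. Over all 21 loci the ratio of mean CPM in the holding group to the floor of 3 counts ran from 5.17 to 115.

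**Figure D3:**
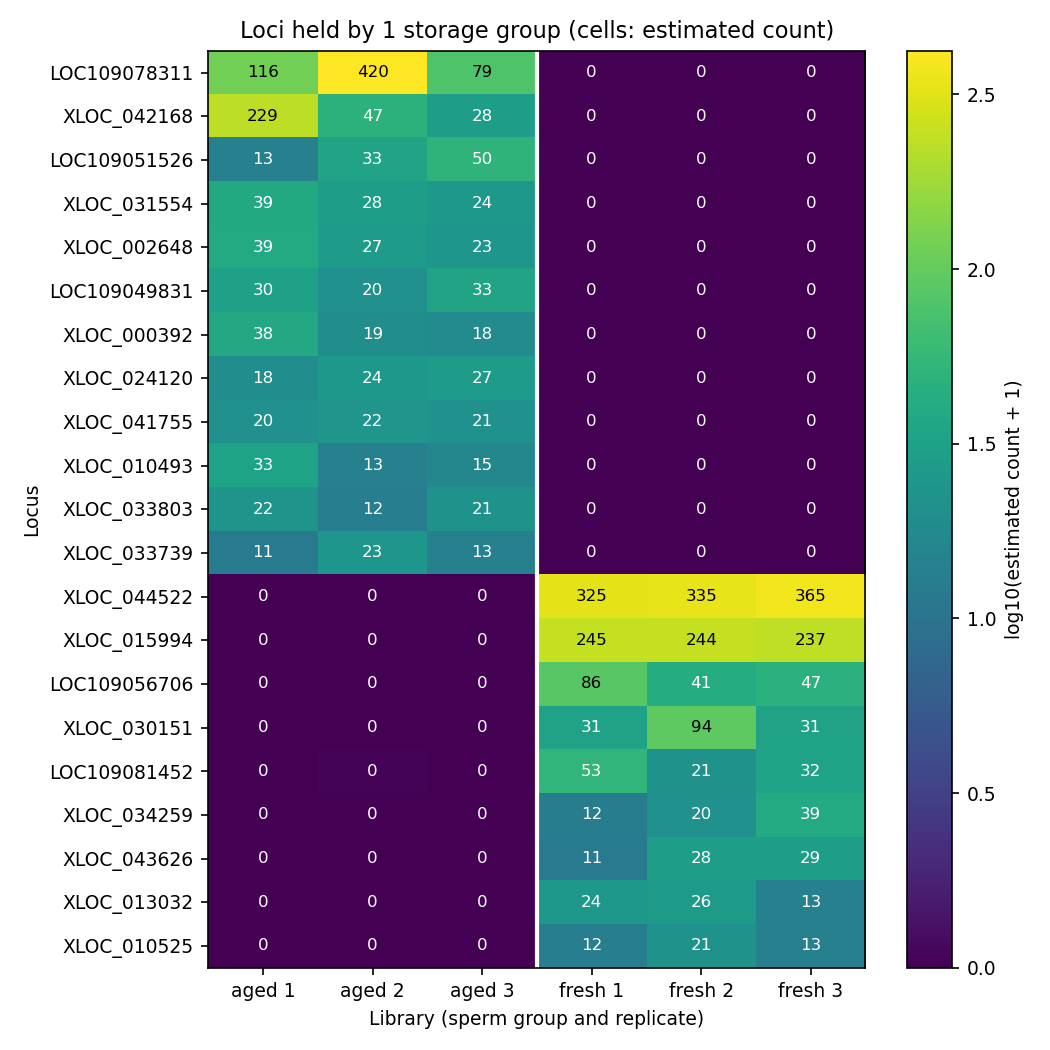
Estimated counts of the 21 loci held by the 3 libraries of 1 storage group (rows) in each library (columns; aged sperm left of the white line, fresh sperm right), coloured by log10(count + 1). The 12 upper loci are at 0 in the fresh group; XLOC_044522 (325 to 365) and XLOC_015994 (237 to 245) are high and even in the fresh group, while LOC109078311 and XLOC_042168 are uneven in the aged group.

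These terms are those that the study attached to loci it listed as changed in these same libraries, so they are not independent of the counts. Terms were at hand for 21 of the 21 storage-divided members and for 0 of the 117 others, and so the functions of the majority could not be described.

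In the storage comparison across all genes, 137 of the 138 members passed the filter on low counts. A member held by 1 storage group had to differ in this comparison, so the calls are no support for it. The groups did not overlap in the 21 storage-divided members, beside 8.79% of tested genes in which they did not. The edgeR quasi-likelihood test called 2 members, XLOC_044522 and XLOC_015994, both lower after storage with an adjusted p of 0.00146, beside 0.0146% of the 27342 genes tested. Their fitted log2 fold changes were -11.43 ± 0.30 and -10.93 ± 0.28, where ± is the size of the fold change divided by the square root of the test's F statistic. Both loci were at 0 in the aged group, so these values depend on the prior count. The ± is thus no bound on the fold change. DESeq2 gave 132 members an adjusted p and called all 21 storage-divided members and 0 of the others, beside 0.182% of the 31812 genes with an adjusted p. In edgeR the same 21 had an unadjusted p under 0.05, beside 3.36% of genes, and the lowest adjusted p among the 19 not called was 0.245. When replicate numbers were entered as a block, neither locus was called (edgeR adjusted p = 0.332 for both). Leaving out any library kept both edgeR calls. For the mixed members the fitted log2 fold changes ran from -2.37 to 3.51, none with an edgeR adjusted p below 1 when rounded. Across tested members the median was -0.05, and across all tested genes it was 0.00.

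Copies or alleles that replace each other between libraries would appear as loci of like length held by opposite sets. Members in opposite sets formed 480 pairs, and in 22 of them (4.58%) the effective lengths lay within 3% or 20 bases. Of 8973 pairs that were not opposite, 233 (2.6%) did so. The gap was narrower with other tolerances: 1.25% of opposite and 0.97% of other pairs within 1% or 10 bases, and 5.63% and 4.63% within 5% or 50 bases. Among the 108 pairs that oppose aged to fresh libraries the count was 8 (7.41%), and among the other 372 it was 14 (3.76%). The 8 include every pair of LOC109051526 or XLOC_033803 (aged group) with LOC109056706 or XLOC_010525 (fresh group), loci of 6633 to 6840 bases. LOC109081452 also recurs among the 8, so this share rests on few loci. The 22 pairs involved 35 of the 138 members, 22 of them XLOC loci. Pairs share members, so no error is attached to these shares.

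Levels in the pairs of like length differed about as much as in other opposite pairs. The level of one locus was within 2-fold of the other in 12 of the 22 pairs (54.5%), and in 230 of the 458 opposite pairs of unlike length (50.2%). The sum of both loci varied with a median coefficient of variation (CV) of 0.538 over the 6 libraries in pairs of like length and 0.546 in the others. A CV of 0.2 or less was reached by 0 of the 22 pairs and by 12 of the 458.

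The closest pair by level was LOC109058525 and XLOC_001586, whose lengths were 1576 and 1594 bases. LOC109058525 averaged 26 counts in aged 2, fresh 1 and fresh 3, and XLOC_001586 averaged 27 counts in the opposite libraries. Their sum still varied from 19.5 to 35.6 counts. The second was LOC109063034 with XLOC_036052, at 15.5 and 16.6 counts, and the third XLOC_020479 with XLOC_021150, at 42.4 and 45 counts. In the third pair the sum varied from 13.7 to 93.4 counts. Next came XLOC_013767 with XLOC_026810 and LOC109090734 with XLOC_015132. Pairs of the storage division were XLOC_033803 (aged group) with XLOC_010525 (fresh group), 51.4 bases apart in length, and LOC109049831 (aged group) with XLOC_043626 (fresh group), 54.4 bases apart. XLOC_010493 (aged group) and LOC109081452 (fresh group) differed by only 0.367 bases in 4242 in effective length, but averaged 20.3 and 35.2 counts. Each effective length was averaged over the libraries that held the locus, and these differ in fragment length. A difference this small is therefore not one of transcript length alone. XLOC_001769 with XLOC_021150 and XLOC_002648 (aged group) with XLOC_030151 (fresh group) complete the 10 pairs closest in level.

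A partner need not itself be absent anywhere, and so each member was also compared with every listed locus of like length. A mirror locus was one whose CPM was higher in every library without the member than in any library with it, and on average higher by 0.5 to 2 times the member's own level. Such a locus was found for 133 of the 138 members, with 1734 matches. Parallel loci, which met the same limits but were higher where the member was present, were found for 132 members, with 1869 matches. The search in this form therefore did not tell opposite from parallel partners. Its 10 matches with the steadiest sums were abundant loci such as LOC109090717, which averaged 2030 counts beside 18.4 for XLOC_003010. The others joined LOC109052058 to snx2, XLOC_010440 to LOC109050691, XLOC_006520 to LOC109070146, XLOC_039272 to LOC109108150, XLOC_020479 to enah, XLOC_027848 to l3mbtl2, LOC109062946 to LOC109063815, XLOC_010525 to LOC109087896 and XLOC_025778 to ythdf3.

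Stricter limits, chosen after these values were seen, asked that the partner's mean CPM be at least 2 times higher without the member. They left 205 opposite matches in 90 members and 196 parallel matches in 95 members. When the CV of the sum had also to be 0.2 or less, 25 opposite matches in 24 members remained, of which 13 had lengths within 1%. These counts can be read against partners of other lengths. Steady opposite partners numbered 13 per 44540 possible partners within 1% in length, which is 29.2 per 100000, and 12 within 1 to 3%, which is 13.4 per 100000. Beyond that the rate was 9.14 at 3 to 10%, 9.77 at 10 to 30% and 9.04 per 100000 at over 30%. The highest rate rests on 13 partners, and the same libraries entered every class.

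**Figure D4:**
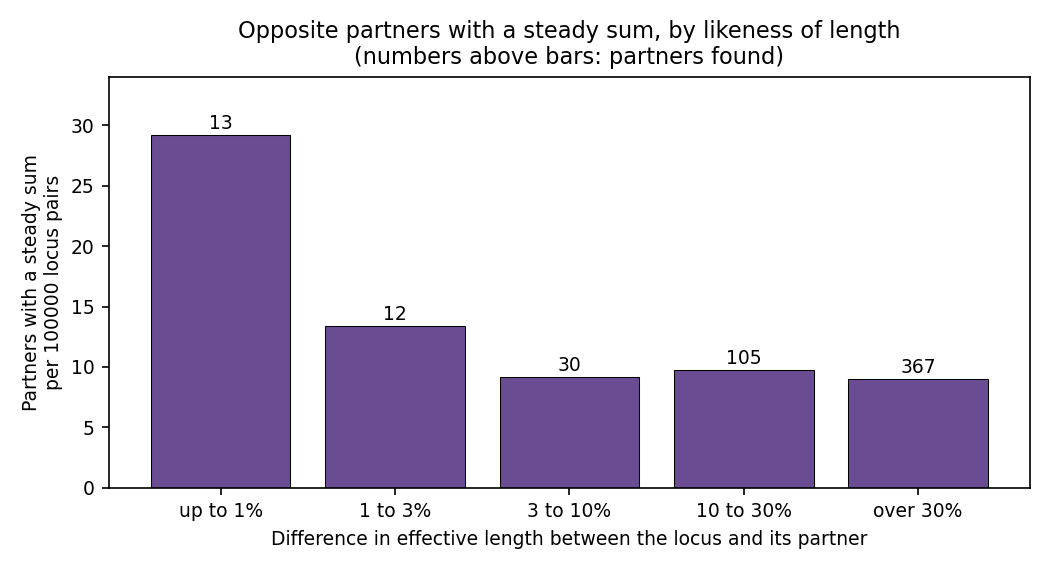
Opposite partners with a steady sum (CV of 0.2 or less) per 100000 possible pairs of a member and another locus (vertical axis), by the difference in effective length (horizontal axis, % of the longer). The rate is 29.2 up to 1%, 13.4 from 1 to 3% and 9.04 to 9.77 in the 3 wider classes; the number of partners found stands above each bar.

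The steadiest of these pairs joined XLOC_044522 to mogat3a, a monoacylglycerol acyltransferase of triglyceride synthesis on a sequence without a chromosome. mogat3a had 402, 342 and 339 counts in the aged group and 0 in all 3 libraries of the fresh group. The sum of both loci was 402, 342 and 339 in the aged group and 325, 335 and 365 in the fresh group, with a CV of 0.0671. Each library thus held one locus and none of the other. In edgeR mogat3a was also called, with a log2 fold change of 11.48 (adjusted p = 0.00146), opposite in direction to XLOC_044522. The search required that opposite direction. Their effective lengths, 1222 and 1217 bases, differed by 5.63 bases, and all 7 terms of one were terms of the other.

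The next pairs in order of their CV divided the libraries across the storage groups, and in them both loci could be counted in one library. XLOC_043776 had 0, 83 and 81 counts in the aged group and 0, 72 and 0 in the fresh group. hexa, the alpha subunit of the lysosomal enzyme hexosaminidase (B25, 17459041 to 17469913), had 106, 8 and 5 counts in the aged group and 89, 9 and 96 in the fresh group. The sum stayed between 81 and 106 counts in all 6 libraries (CV 0.0824). XLOC_039272, one of the loci with steps, had LOC109107106 (B20, 11802536 to 11815580) as its partner, with 9, 130 and 115 counts in the aged group and 0, 129 and 48 in the fresh group. Fresh 3, where the member stood at the lower step, was the library in which both loci were counted at intermediate levels.

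Intermediate libraries were seen for XLOC_025018, which carries no terms, and its partner ccnd2b as well. XLOC_025018 had 0, 182 and 0 counts in the aged group and 182, 399 and 0 in the fresh group. ccnd2b, a cyclin of the G1 phase (B4, 4611041 to 4620975), had 416, 276 and 353 counts in the aged group and 200, 0 and 337 in the fresh group. That the member was absent where ccnd2b was at its 3 highest was set by the search. Among the libraries that held it, it stood at 182 beside 276 and 200 counts of ccnd2b, and at 399 where ccnd2b was at 0. The limit on the CV of the sum, and the ranking by it, favour such opposite values in each of these pairs, so they are a description. XLOC_000376 had 0, 39 and 0 counts in the aged group and 22, 46 and 0 in the fresh group. pkd2, a calcium channel subunit of cilia (A1, 30914628 to 30924135), had 50, 21 and 52 counts in the aged group and 24, 0 and 47 in the fresh group. XLOC_025018 and XLOC_000376 were thus held by the same 3 libraries, and both partners were at 0 in fresh 2.

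**Figure D5:**
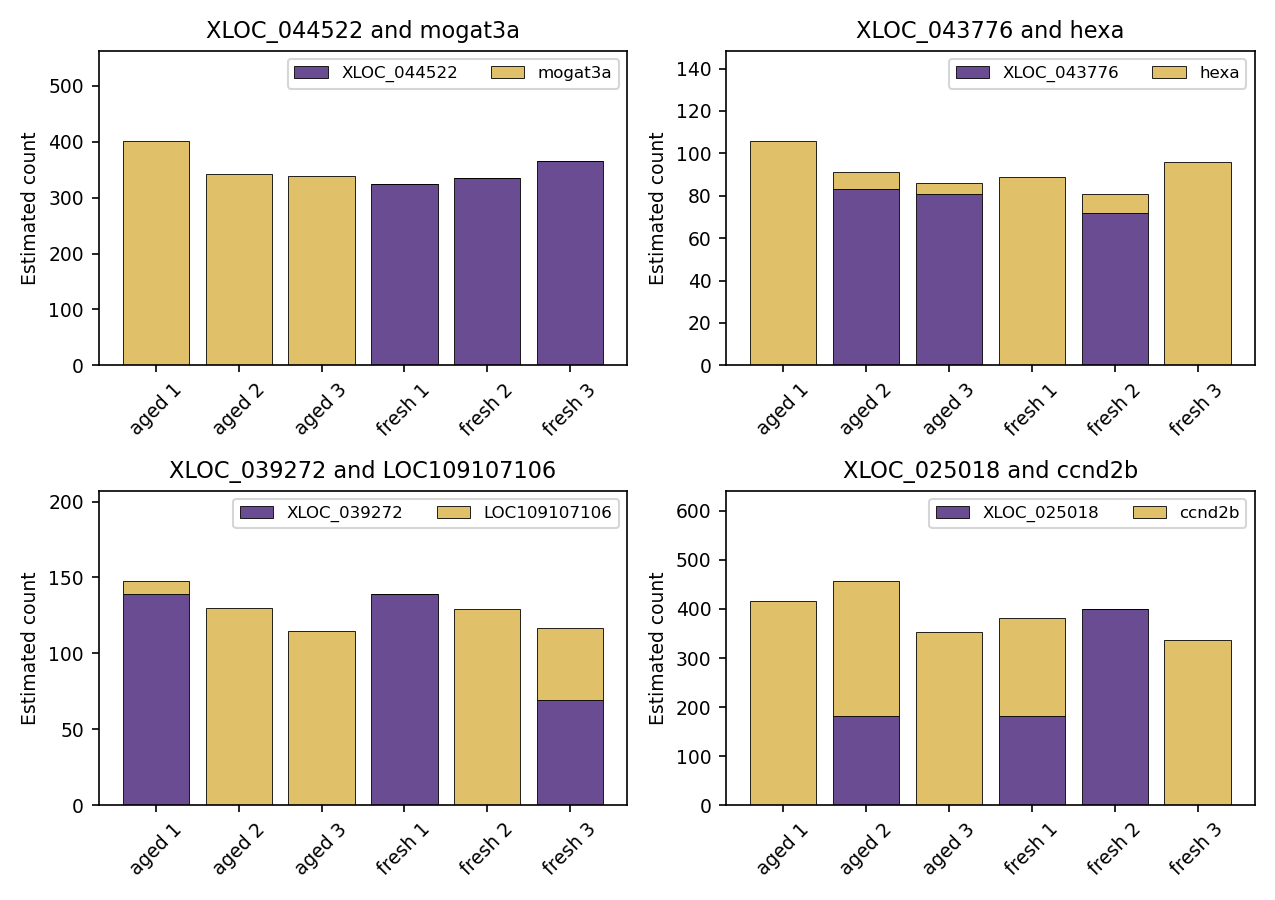
Stacked estimated counts (vertical axis) of a locus counted in exactly 3 libraries (purple) and its opposite partner (yellow) in each library (horizontal axis, aged sperm left, fresh sperm right) for the 4 pairs with the steadiest sums. The summed height changes little, from 325 to 402 for XLOC_044522 with mogat3a and from 81 to 106 for XLOC_043776 with hexa, while the share of each locus changes from library to library.

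Of the 25 steady matches, 5 involved members of the storage division, and 8 partners carried a gene symbol. Beside XLOC_044522 these 5 were XLOC_013032 with XLOC_025013, XLOC_024120 with XLOC_035619, XLOC_015994 with zfyve28, and XLOC_034259 with lrit3a. zfyve28, which encodes a zinc finger protein (B17, 21451944 to 21468980), had 340, 230 and 294 counts in the aged group and 105, 125 and 159 in the fresh group, where XLOC_015994 had 245, 244 and 237. The sum with XLOC_015994 was 340, 230 and 294 in the aged group and 350, 369 and 397 in the fresh group (CV 0.182). The groups did not overlap in either locus, as the choice of the member and the search for its partner required. The edgeR adjusted p of zfyve28 was 0.659. In the sum, too, the groups did not overlap, and the sum was lower in the aged group. The remaining named partners were itfg2 for XLOC_025143 and rab27a, a small GTPase of secretory vesicles, for XLOC_038170. rab27a was counted at 33 in aged 3 and at 24 and 32 in fresh 2 and fresh 3, and at 0 in the 3 libraries that held XLOC_038170.

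A further pair came from shared terms. XLOC_031554, held by the aged group, and XLOC_043626, held by the fresh group, carried the same 25 terms, which were also those of cry5 (B10, 18464505 to 18468149). Their effective lengths, 1662 and 2950 bases, were unlike, but that of cry5 was 1617 bases, 2.68% under XLOC_031554. The sum of XLOC_031554 and cry5 was 42, 28 and 24 counts in the aged group and 31, 25 and 28 in the fresh group, with a CV of 0.204, just over the limit set for a steady sum. cry5 alone had 3.49, 0 and 0 counts in the aged group and 31, 25 and 28 in the fresh group. The summed counts of the groups overlapped, whereas those of either locus alone did not. For XLOC_031554 the rule had set this, and cry5 was reached through terms given to loci listed as changed. The contrast is thus a description. With XLOC_043626 added, the aged group still stood at 42, 28 and 24 counts. The fresh group then stood at 41.8, 53.5 and 56.6 (CV 0.32), so the groups overlapped only narrowly. Whether the loci of any pair are copies, alleles or variants of one assembled transcript was not tested, since no sequence of them was used here.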

How the data were processed

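Whole embryos were profiled by RNA-Seq on DNBSEQ after oligo(dT) enrichment. HISAT2 was used by the authors for mapping, StringTie and Cuffmerge for transcript assembly, and Bowtie2 for alignment to the assembled sequences; versions are not given in the sources used here. Deposited for each gene and library are an estimated count, an FPKM value, and transcript and effective lengths, under labels that name RSEM. A further 12 columns of the libraries were not used, nor was the authors' comparison table of p-values, corrected p-values and log2 fold changes.

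Members were chosen on the deposited estimated counts, unrounded. For the storage test (edgeR 4.0.16 in R 4.3.3: TMM, filterByExpr, quasi-likelihood, Benjamini-Hochberg; DESeq2 1.42.0 as alternative) counts were rounded. CPM elsewhere divides by the library total. The edgeR fit without a block, the search for opposite pairs, the mirror search under its stricter limits and the rule for steps were tested on simulated data. DESeq2, the replicate block and the other steps were not. The members and lists were chosen with earlier results of these data known. Named were the 10 storage-divided members of highest mean count per group, the 10 opposite pairs closest in level, the 10 steadiest mirror matches, the 3 highest mixed members, members at the limits and members called; others were named after their values were seen. Tables and figures used Python 3.11.15, pandas 2.3.3, numpy 2.4.6 and matplotlib 3.10.9. Counting intervals are not given, since divided reads are not independent counts.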

Additional observations from a re-analysis of the deposited data

How the results depend on the processing

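With a minimum of 5, 20 or 50 counts in place of 10, the members numbered 226, 65 and 21; with 20 and 50, 11 and 3 of them followed storage, and with 5 and with 50 counts 2 mixed divisions held more loci than storage did. Asking for exactly 0 or for under 1 in the other libraries, or taking any identifier, left both counts within 1.5 times. Leaving out 1 library at a time, which relaxes the rule to fewer libraries, gave 36 to 46 storage-divided loci. No count of the other divisions stands beside these, so the rise cannot be read as particular to storage. The 22 opposite pairs of like length became 6 with lengths within 1% or 10 bases. The members with a mirror locus fell to 24 under the partner fold and steady sum, chosen after seeing the data. Across all genes, the 4 calls of edgeR became 58 with DESeq2, and 3 to 9 with 1 library left out (9 without replicate 3 of the fresh group). With the replicate number as a block there were 0 calls (1569 genes at an unadjusted p under 0.05, against 920 without the block; DESeq2 was run only without it). Deviations of same-numbered libraries correlated at -0.00237, 0.0375 and 0.0886 over 27342 genes; aged 2 and aged 3 correlated best with their own number and aged 1 with fresh 2 (0.032). With only the 15300 more highly counted genes (mean log2 CPM over 3), a check added after seeing the data, they correlated at 0.101, 0.103 and 0.272, each the highest for its library. No source used here says that a number marks a male, so the fit without the block was kept; the data do not settle whether the numbers pair the libraries. In the log2 fold changes of the 21 storage-divided members no alternative turned a direction. The rule fixed these directions in advance, so this is no sign of robustness. At this depth a locus with about 10 counts cannot be told from one just under the minimum.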
